A study of Mus musculus with 87 samples.

Results

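Low-level private ETn regions, here 5 to 10 RPM (reads of a region per 1000000 reads of its library), were the subject of this account: places in the genome where a single mouse, and no other animal or embryonic stem (ES) line of the series, carried a small cluster of reads paired with an ETn retrotransposon. A region entered the set when it stood in the first listed library of a B6x129X1/SvJ F1 or F2 mouse with 4 or more reads, lay at 5 RPM or more and below 10 RPM, and had no region of any other animal or ES line within 1000 bp. The regions were selected on these read counts and on the lack of neighbours. The rule took 1442 regions of 448260 in the first libraries of 52 mice, out of 786023 in all libraries of the series. They were 9.98% of the 14451 regions with 4 or more reads in the same RPM window, and nothing is read from that share because the rule set it.

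ETn (early transposon) elements are retrotransposons of the mouse with long terminal repeats (LTRs). They copy themselves through RNA and reverse transcription, and they lack functional genes of their own, so their movement relies on proteins made by related elements such as MusD. ETn insertions are a known source of spontaneous mutations in laboratory mice. KRAB zinc finger proteins bind such elements in embryonic cells and recruit the repressor KAP1, which leads to silencing chromatin. An insertion made in the germ line is present in every cell of the offspring, whereas one made later in development is present in only part of the cells.

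The series searched for new insertions in mice that lack a cluster of KRAB zinc finger genes on chromosome 4 (Chr4-cl). Genomic DNA was enriched with RNA probes to the outer ends of ETn LTRs and sequenced in pairs, so that one read falls in the element and its mate in the flanking unique sequence. No drug or other treatment was given. The deletion was made in B6 ES cells, and the mice used here descend from crosses of that line to 129X1/SvJ, once for the 13 F1 mice and again for the 39 F2 mice.

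KO mice carried the deletion on both chromosomes, KO/WT mice on one, and WT mice on neither. Among the F1 mice were 2 KO/WT parents (T3913, ear, and T3921, tail), a first generation of 4 KO and 3 WT mice, and a second generation of 4 KO mice. Among the F2 mice were 4 parents, the offspring of mating 1 (BA27227 x BA27232, tails of 5 KO and 8 KO/WT and ears of 3 KO), mating 2 (BA27228 x BA27084, tails of 4 KO, 4 WT and 1 KO/WT) and mating 3 (C7416 x C7249, tails of 4 KO and 4 WT), and 2 KO mice of a second generation from mating 1. Some sample names cut a parent's number short, and these were taken to mean the pair of that mating. All offspring of matings 1 to 3 share B6 and 129X1/SvJ ancestry, and each mating is a single pair of parents. Age is known only in that the study's text calls the tails of matings 1 to 3 juvenile and the labels call the second tail samples of C6733 and C7416 adult.

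The first libraries held 563472 to 902477 reads. On chromosome 4 from 145000001 to 147000000, where the KO libraries lose ETn reads, the level was 59.8 to 213 RPM in the 27 KO mice, 1213 to 1349 RPM in the 14 KO/WT mice and 1632 to 1739 RPM in the 11 WT mice, so every library matched its genotype label (the window was chosen after these values were seen). The study's text calls F1 mice heterozygous where the labels have WT, and the labels were followed. The F1 mice in question, T00434, T00435 and T00464, were at the WT level on chromosome 4. The Y chromosome reads of 4 mice labelled male were at the female level: the mating 1 KO ears C6923, C6924 and C6926 and the mating 2 KO tail H04408. Comparisons of numbers, the correlation and the gene shares below are also given without them where they enter and a comparison remains, an alternative chosen after seeing the data. Each further library resembled the first library of the same mouse most, sharing 98.8 to 100% of 251 polymorphic ETn loci with it and at most 89.2% with any other mouse. Nothing in the labels says that littermates were processed separately, so p-values below measure the spread between these libraries.

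The probes show what the enrichment was aimed at. The 2 most repeated probes of the design are from the 5′ end of the 5′ LTR (present 52 times) and the 3′ end of the 3′ LTR (present 50 times). They are given here because the libraries were enriched with sequence of this kind. By the study's methods, a counted read needed a mate in an ETn repeat, which could be internal sequence. Capitals mark the TG and CA that begin and end an LTR.
5′ LTR end: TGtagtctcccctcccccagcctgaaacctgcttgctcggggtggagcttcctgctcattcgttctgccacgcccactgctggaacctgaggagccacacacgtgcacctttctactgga
3′ LTR end: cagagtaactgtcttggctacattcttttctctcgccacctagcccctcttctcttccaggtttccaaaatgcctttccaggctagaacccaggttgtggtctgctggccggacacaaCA

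The next 4 sequences are of the B6 reference (mm9, plus strand), from C7415, C5731, H03387 and C6733, which had both low-level private regions and a second tail library, and each is the region with the most RPM in that second library. Capitals mark bases that also lie within the read cluster of the second library. They thus lie within the clusters of both libraries, and no other animal had a region within 1000 bp. A cluster joins reads up to 1000 bp apart, so not every base in it need be covered by a read.
C7415, chr4:83966470-83966769: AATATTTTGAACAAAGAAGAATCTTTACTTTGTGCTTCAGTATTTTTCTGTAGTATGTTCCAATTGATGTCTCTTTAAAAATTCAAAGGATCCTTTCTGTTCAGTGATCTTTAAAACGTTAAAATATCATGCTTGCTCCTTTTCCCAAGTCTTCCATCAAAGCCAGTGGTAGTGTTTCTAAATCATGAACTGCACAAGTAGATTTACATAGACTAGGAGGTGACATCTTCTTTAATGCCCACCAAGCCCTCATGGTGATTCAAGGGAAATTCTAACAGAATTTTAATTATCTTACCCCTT
C5731, chr10:22552802-22553101: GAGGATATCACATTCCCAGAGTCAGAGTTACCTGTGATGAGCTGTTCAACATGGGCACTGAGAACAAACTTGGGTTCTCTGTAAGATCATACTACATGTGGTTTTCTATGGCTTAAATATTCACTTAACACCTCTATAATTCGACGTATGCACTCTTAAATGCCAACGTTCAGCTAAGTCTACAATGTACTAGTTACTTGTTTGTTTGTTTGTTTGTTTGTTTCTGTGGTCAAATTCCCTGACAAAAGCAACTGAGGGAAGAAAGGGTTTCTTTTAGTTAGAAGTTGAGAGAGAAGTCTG
H03387, chr3:43569266-43569565: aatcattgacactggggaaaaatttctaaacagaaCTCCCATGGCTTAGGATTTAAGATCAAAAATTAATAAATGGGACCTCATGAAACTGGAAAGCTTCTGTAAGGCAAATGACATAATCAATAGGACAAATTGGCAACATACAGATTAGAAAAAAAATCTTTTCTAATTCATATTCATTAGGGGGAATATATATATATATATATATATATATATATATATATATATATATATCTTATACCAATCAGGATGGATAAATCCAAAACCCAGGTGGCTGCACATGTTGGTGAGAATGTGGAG
C6733, chr13:72147192-72147491: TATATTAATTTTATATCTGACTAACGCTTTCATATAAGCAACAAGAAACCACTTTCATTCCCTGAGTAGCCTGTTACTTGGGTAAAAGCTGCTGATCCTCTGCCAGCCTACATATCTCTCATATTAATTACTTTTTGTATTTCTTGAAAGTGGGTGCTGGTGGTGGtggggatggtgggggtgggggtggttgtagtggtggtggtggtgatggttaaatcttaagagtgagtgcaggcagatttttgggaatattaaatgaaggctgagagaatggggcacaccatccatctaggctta

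The region of C7415 (chromosome 4, 83966461 to 83966777) lies in an intron of Bnc2, a zinc finger gene, and held 7 reads (8.74 RPM) in the first tail library and 18 reads (28.7 RPM) in the technical repeat. That of C5731 (chromosome 10, 22552794 to 22553109) lies between genes, 13017 bp from Tcf21, and went from 9.65 to 15.7 RPM. That of H03387 (chromosome 3, 43569243 to 43569588) has no protein-coding gene within 1612905 bp, the nearest being the protocadherin gene Pcdh10, and went from 8.13 to 25.3 RPM. The region of C6733 (chromosome 13, 72147178 to 72147505) lies 46170 bp from the homeobox gene Irx1 and held 6.15 RPM in the juvenile tail and 20.4 RPM in the adult tail. These 4 are the highest second values of their mice and not typical ones, which are given further on.

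The regions were small read clusters at a few percent of the level of an inherited element. Of the 1442 regions, 515 held 4 reads, 478 held 5, 323 held 6, 81 held 7 and 45 held 8. Their median was 7.24 RPM (quartiles 6.16 and 8.16) and their median width 317 bp (245 and 402). One read was worth 1.11 to 1.77 RPM, so the read minimum set the lower edge in shallow libraries, up to 7.1 RPM in the shallowest. At the edges of the window, private regions of C7415 with 4 reads at 4.995 RPM were left out, whereas those of C6767 with 4 reads at 5.044 RPM were taken, and regions of C7415 with 8 reads at 9.990 RPM were taken whereas those of C6767 with 8 reads at 10.087 RPM were left out. In the same mice, ETn loci absent from B6 and present at 100 RPM or more, which are inherited from 129X1/SvJ, had median levels of 181 to 253 RPM. The low-level private regions reached 3.29% of that level in the median, with quartiles of 2.87 and 3.78%. These values follow from the RPM window and describe it.

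Numbers per mouse fell into separate clusters. No such region was found in 20 of the 52 mice, 7 mice had 1 to 6, none had 7 to 13, and 25 had 14 to 120. These 25 mice held 1420 of the 1442 regions. The regions came to 1388 in F2 and 54 in F1 mice, and to 1411 in tail, 26 in ear and 5 in blood libraries. The mean was 27.7 ± 36.6 per mouse (SD, n = 52) and the median 5.5. Private regions with 2 or 3 reads split the same tails: among the juvenile tails of matings 1 to 3, the 10 with 0 low-level private regions had 0 to 7 of them and the 19 with 14 or more had 53 to 395. Private regions of a single read did not, with 336 to 1686 in the former and 451 to 2187 in the latter. Neither the depth, 654160 to 865136 reads against 563472 to 843579, nor the median inherited level, 205 to 229 RPM against 198 to 253 RPM, separated the 10 tails from the 19.

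**Figure D1:**
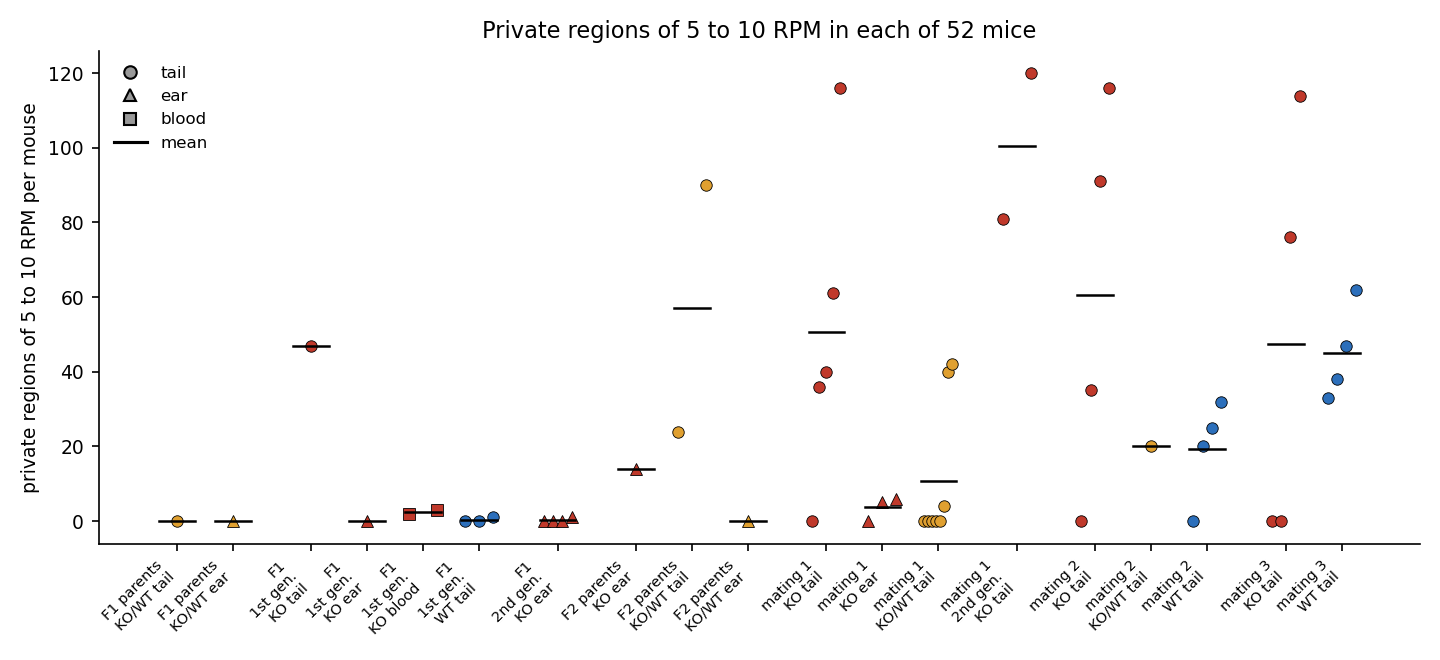
Private regions of 5 to 10 RPM (vertical axis, number per mouse) in the 52 mice, by family, genotype and tissue. Each point is 1 mouse, circles are tails, triangles ears and squares blood, red is KO, orange KO/WT and blue WT, and the line is the mean of the column. Of the mice, 20 sit at 0, and the 7 above 0 but below 14 have at most 6.

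In mating 1, which asked whether KO offspring gain more insertions than KO/WT littermates, KO tails had more low-level private regions than most KO/WT tails, but the groups overlapped. The 5 KO tails held 40 (C6765), 116 (C6733), 0 (C7414), 36 (C7415) and 61 (C7417) regions, a mean of 50.6 ± 42.6 (SD, n = 5). The 8 KO/WT tails held 42 (C6767), 40 (C7416), 4 (C6927) and 0 in each of the other 5, a mean of 10.8 ± 18.7 (SD, n = 8). KO exceeded KO/WT in 55 percentage points more pairs of animals than the reverse, with exact p = 0.0528 (one-sided permutation test of the rank sum) and p = 0.106 after Benjamini-Hochberg adjustment over 4 comparisons. The call turns on C7414, the KO tail with 0: without it the surplus was 78.1 percentage points and the adjusted exact p was 0.0411. With the window set in reads, 4 to 7 reads whatever the RPM, the adjusted exact p was 0.0456.

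In mating 2 the 3 highest numbers were all in KO tails. The 4 KO tails held 0 (C5734), 116 (C7250), 35 (H04408) and 91 (H032265), a mean of 60.5 ± 52.7 (SD, n = 4). The 4 WT tails held 20 (C5733), 32 (C5736), 25 (C5731) and 0 (H04405), a mean of 19.2 ± 13.7 (SD, n = 4), and the KO/WT tail C7249 held 20. The surplus of pairs was 56.2 percentage points with exact one-sided p = 0.114, adjusted p = 0.152, where 4 against 4 cannot go below 0.0143. Without C5734, the KO tail with 0, the surplus was 100 percentage points (exact p = 0.0286, adjusted p = 0.0571). Without H04408, whose Y reads go against its label, the surplus was 41.7 percentage points and the adjusted exact p was 0.305.

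Mating 3 showed no surplus in KO tails. The 4 KO tails held 0 (M05137), 76 (M05143), 0 (M05666) and 114 (M05668), a mean of 47.5 ± 57 (SD, n = 4). All 4 WT tails had many, with 62 (M05139), 33 (M05141), 38 (M05667) and 47 (M05669), a mean of 45 ± 12.7 (SD, n = 4). KO tails were thus both above and below every WT tail, and the surplus of pairs was 0 (exact one-sided p = 0.514, adjusted p = 0.514). Leaving out single animals moved it from -33.3 to 33.3 percentage points.

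Over the 3 matings, 13 KO tails had a mean of 52.7 ± 46.3 (SD, n = 13) and 17 WT or KO/WT tails 21.4 ± 20.4 (SD, n = 17), with medians of 40 and 20. The surplus was 36.2 percentage points, exact one-sided p = 0.0453 and adjusted p = 0.106. Its adjusted p fell below 0.05 without C7414 (0.0411), without mating 3 (0.0465), with the window of 4 to 7 reads (0.0456) and for the difference of means (31.3 regions, permutation p adjusted to 0.0413). It was 0.105 when animals were permuted within matings and 0.106 without H04408. In the exact rank sum test it was 0.326 without mating 1 (surplus 20.8 percentage points) and 0.17 without mating 2 (29.6). The two-sided form of that test over the 3 matings gave an adjusted p of 0.208. At least 1 region was found in 9 of 13 KO tails and in 11 of 17 other tails.

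F1 mice had few low-level private regions with 1 exception. The F1 KO tail T00436 held 47, the F1 WT tails T00434, T00435 and T00464 held 0, 0 and 1, and the KO/WT parent T3921 held 0. The F1 KO blood libraries T09673 and T09674 held 3 and 2, and the 6 F1 ear libraries held 0 except for 1 in C6427. The 34 F2 tails had a mean of 40.1 ± 39.4 (SD, n = 34) and the 5 F1 tails 9.6 ± 20.9 (SD, n = 5), a surplus of 42.9 percentage points in F2 with exact two-sided p = 0.123 and adjusted p = 0.161. With ear and blood included the surplus was 50.9 percentage points and the adjusted exact p 0.00834, but tissue then differs between F1 and F2, and tissue and generation cannot be told apart there. Without the 4 mice whose Y reads go against their labels, the surplus was 42.4 percentage points in tails (exact p = 0.129) and 50.5 with all tissues (exact p = 0.005).

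Ear libraries held fewer regions than tails of the same mating and genotype without passing the test. The mating 1 KO ears held 5 (C6923), 0 (C6924) and 6 (C6926), a mean of 3.67 ± 3.21 (SD, n = 3), against 50.6 ± 42.6 (SD, n = 5) in the KO tails. The difference in pairs was -66.7 percentage points (exact two-sided p = 0.161, adjusted p = 0.161), and the smallest p that 3 against 5 allows is 0.0357. All 3 ear mice are among those whose Y reads go against their labels, so no ear mouse remains without them. Among the parents, the ear of the KO mouse BA27232 held 14 and the ear of BA27227 held 0, whereas the tails of BA27228 and BA27084 held 24 and 90. The 2 KO tails of the second generation from mating 1, H03384 and H03387, held 120 and 81.

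The number of low-level private regions rose with the number of private regions at 10 RPM or more. The rule did not take the latter, but its 10 RPM limit and its lack of neighbours define them too. Since the tails fell into separate clusters, the relation was computed over the 19 juvenile tails of matings 1 to 3 with 14 or more regions. Over these, Pearson's r was 0.904 and Spearman's rho 0.914, with a permutation p of 1e-05 for each, the smallest that 100000 permutations can give, and 4e-05 after adjustment over 8 correlations. Without C6733 and M05668, the 2 tails farthest from the median on the x axis, r was 0.84. Within matings r was 0.948 in 6 tails of mating 1 (exact permutation p = 0.017, adjusted 0.027), 0.944 in 7 tails of mating 2 (0.033, adjusted 0.043) and 0.968 in 6 tails of mating 3 (0.0056, adjusted 0.015). Spearman's rho was 0.812 in mating 1 (exact permutation p = 0.072, adjusted 0.083), 0.679 in mating 2 (0.1, adjusted 0.1) and 0.943 in mating 3 (0.017, adjusted 0.027), so only mating 3 passed by both measures. In mating 2 r rests on C7250 and H032265, without which it was 0.254. Without H04408, r was 0.902 over the other 18 tails (permutation p = 1e-05) and 0.947 over 6 tails of mating 2 (exact permutation p = 0.05 before adjustment, with a rho of 0.746). Both numbers come from the same library and share its depth and the privacy filter. The limit of 14 regions was set on 1 of the 2 correlated numbers after they had been seen.

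In each of the 24 mice with 20 or more private regions at 5 RPM or above, those below 10 RPM outnumbered those above. The ratio had a median of 1.8 and ran from 1.14 in BA27228 (24 against 21) to 4.12 in M05141 (33 against 8). In all, 812 private regions stood at 10 RPM or more, with a median of 13.9 RPM. Of the 52 mice, 4 had low-level private regions and none at 10 RPM or more, and 2 had the reverse.

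**Figure D2:**
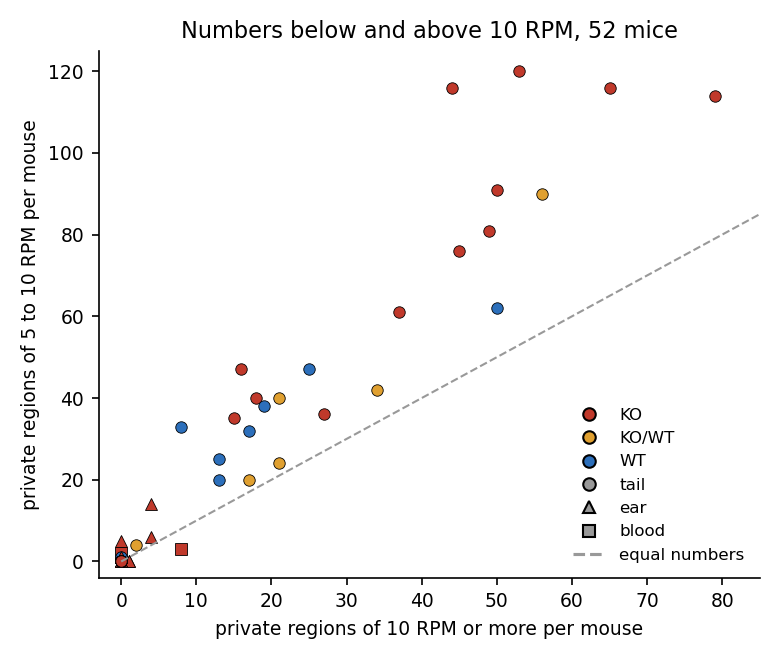
Private regions of 5 to 10 RPM (vertical axis, number per mouse) against private regions of 10 RPM or more (horizontal axis, number per mouse) in the 52 mice. Colours are genotypes, symbols are tissues and the dashed line marks equal numbers. Tails with many regions lie above the line, and M05141 (33 against 8) lies farthest from it in ratio.

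A technical repeat of the same tail found nearly all of these regions again. The study's text describes its technical replicates as coming from the same genomic DNA samples. Whether the library and the capture were both made anew is not given in the sources used here. Of 142 regions in the 3 mice with a repeat, 133 had a region within 1000 bp in it (93.7%, exact Clopper-Pearson 95% interval 88.3 to 97.1%). The share was 34 of 36 (94.4%) in C7415, 24 of 25 (96%) in C5731 and 75 of 81 (92.6%) in H03387. In the mating 2 KO tail C5734 there was no region to look for, and its repeat also gave 0 by the same rule. The share grew with read support: 10.2% of 3967 private regions of a single read, 69.7% of 545 with 2 or 3 reads, 98.6% of 72 at 10 to 20 RPM and 17 of 17 at 20 RPM or more. The single-read share also counts C5734, where 4 of 773 were found, and the share with 2 or 3 reads counts 1 region of that mouse. Single-read regions were found again far more often in H03387 (30.4%) than in C7415 (5.6%), C5731 (4.74%) or C5734 (0.517%). Intervals and limits of this kind cover counting error only.

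Other mice rarely had a region at such sites when the rule passed over them 1 at a time. The rule still asked that all remaining animals and lines lack a region there. Sites held by several animals had thus been removed beforehand, and the low shares below follow in part from the rule. When 1 other mouse at a time was left out of the privacy rule, at most 3 regions of C6733 or H03387 and at most 1 of C7415, C5731 or C7416 turned up in that mouse, a median share of 0 and a highest share of 3.85% over 75 other animals and lines. Levels in the repeat were spread widely around the first value. With absent regions at 0, the mean was 6.83 RPM in the repeat of C7415, 6.06 in that of C5731 and 6.69 in that of H03387, against 7.63, 7 and 7.71 RPM in the first libraries, and the repeat medians were 5.58, 4.29 and 6.31 RPM. In the repeats, 18 of 36, 12 of 25 and 42 of 81 regions reached 5 RPM again, and the highest reached 28.7, 15.7 and 25.3 RPM.

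A second sampling of the tail from the adult mouse found fewer. In the KO/WT mouse C7416 the adult tail held 14 of 40 regions (35%, 95% interval 20.6 to 51.7%), and in the KO mouse C6733 it held 14 of 116 (12.1%, 6.76 to 19.4%). Together this was 28 of 156 (17.9%, 12.3 to 24.9%), an interval that covers counting error in 2 mice and not the spread between mice. Technical repeats gave 92.6 to 96% in 3 other mice. The study's text describes repeated tail samples as DNA of different tail sections taken at different ages. Age, tail section, DNA preparation and mouse therefore cannot be told apart in this comparison. The pooled adult tail share stood above the 1.32% of 3714 single-read private regions of these mice found in the adult tail. The share rose again with read support, from 12.1% of 470 regions with 2 or 3 reads to 35.7% of 70 at 10 to 20 RPM and 7 of 16 at 20 RPM or more. Regions found in the adult tail of C7416 had 1.6 to 20.8 RPM there, with 5 of 14 at 10 RPM or more, and those of C6733 had 1.46 to 20.4 RPM with 2 of 14 at 10 RPM or more. Chosen the other way round, the adult tail of C6733 held 104 low-level private regions of which 24 (23.1%, 15.4 to 32.4%) were in the juvenile tail, and the adult tail of C7416 held 26 of which 12 (46.2%, 26.6 to 66.6%) were.

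The organs of C6733 held none of them. Of its 116 regions, 0 were found in testis, in the testis technical repeat, in brain, in blood or in kidney, which allows a share of up to 2.59% in each, taken as 3 counts of the total (the exact 95% interval drawn for the kidney reaches 3.13%). Its private regions at 10 to 20 RPM (53) and at 20 RPM or more (12) were not found there either. Single-read private regions of the same tail gave 0.27% over the 5 libraries. The organ libraries held 667051 to 709037 reads, as deep as the adult tail with 686557, and matched the tail at 98.8 to 99.2% of polymorphic loci. By the same rule the organs had few such regions of their own: 0 in testis and brain, 2 in the testis repeat, 8 in blood and 10 in kidney, against 116 and 104 in the juvenile and adult tail.

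**Figure D3:**
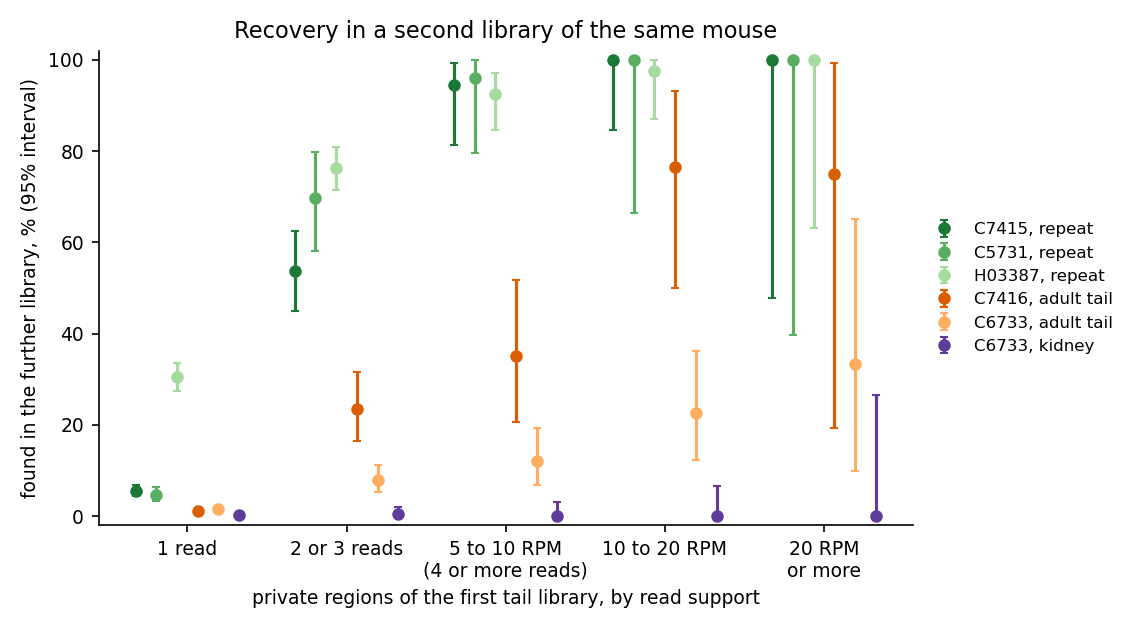
Share of private regions of the first tail library found within 1000 bp in a further library of the same mouse (vertical axis, percent) by read support (horizontal axis). Points are mice and libraries, bars are exact 95% intervals, greens are technical repeats, oranges adult tails and purple the kidney of C6733. At 5 to 10 RPM the repeats lie at 92.6 to 96%, the adult tails at 35 and 12.1% and the kidney at 0.

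**Figure D4:**
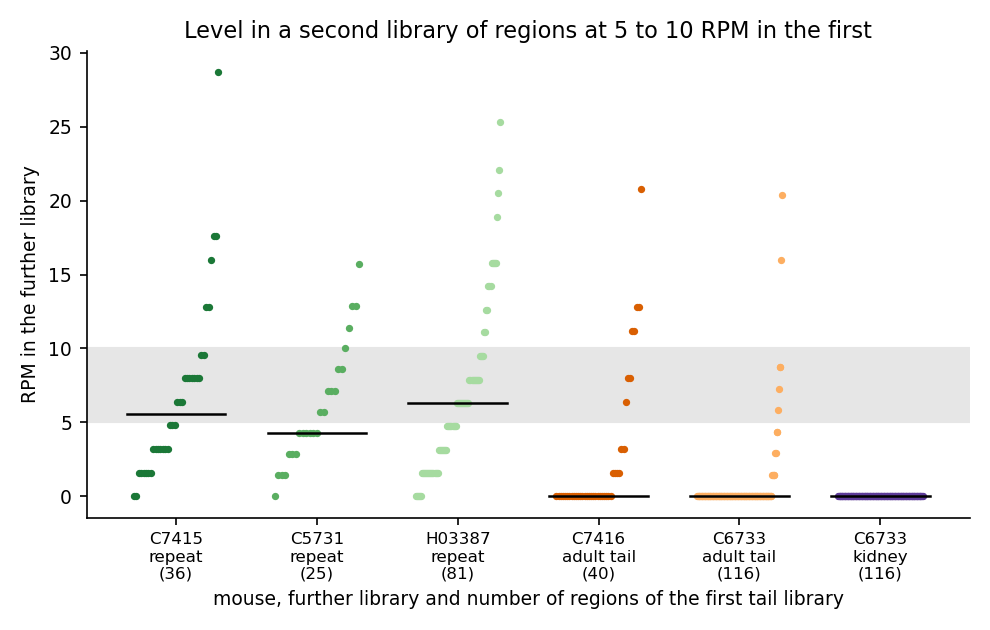
RPM in the further library (vertical axis) of every low-level private region of the first tail library, for each mouse and further library, with the number of regions in parentheses. Points are regions in ascending order, those absent stand at 0, the black line is the median and the grey band is 5 to 10 RPM. Medians are 5.58, 4.29 and 6.31 RPM in the repeats and 0 in the adult tails and kidney.

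Position relative to genes was not used by the rule. By the midpoint of the region, 702 of 1442 (48.7%, 95% interval 46.1 to 51.3%) lay in an annotated gene, 634 of them in introns, 39 in non-coding parts of exons or exons of non-coding genes, and 29 in coding exons, while 740 (51.3%) lay between genes. Genes cover 41.2% of reference bases and held 38.2% of the 55147 private single-read regions, which passed through the same unique mapping. Over the 25 mice with 10 or more of both kinds, the share in genes was 47.9 ± 6.74% (SD, n = 25) for low-level private regions and 39.8 ± 3.06% for single-read ones, 8.09 percentage points higher and higher in 21 of 25 mice (permutation test with 100000 sign flips, p = 4e-05, adjusted p = 8e-05). Against private regions at 10 RPM or more, 50.9% of which lay in genes, the difference was -3.06 percentage points over 23 mice (permutation p = 0.209, adjusted p = 0.209). The share ran from 34.3% in H04408 to 60% in C7249. Without the mice whose Y reads go against their labels, the differences were 8.59 percentage points against single-read regions (permutation p = 1e-05) and -2.64 against regions at 10 RPM or more (permutation p = 0.294).

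Coding exons held 2.01% of the regions (1.35 to 2.88%), against 1.4% of genome bases and 0.762% of single-read regions. Windows of 5000 bp around the starts of protein-coding genes held 11% (9.46 to 12.8%), against 9.99% of bases and 9.72% of single-read regions. GC content over 1000 bp had a median of 43.2%, against 42.3% for single-read regions and 41.8% of the genome. An ETn probe matched the reference within 1000 bp of 51 regions (3.54%, 2.64 to 4.62%) and of 3.84% of single-read regions, while 99% of regions of 100 RPM or more in a B6 library had such a match. The rule bears on this share, because it leaves out places where another animal has a region, as it would at an ETn element of the reference.

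The regions were spread over all autosomes, at 41.4 (chromosome 17) to 72.3 (chromosome 2) per 100 Mb with a median of 63.2. The X chromosome held 23 (1.6%, 1.01 to 2.38%), against 6.33% of bases and 6.06% of single-read regions. The share was low in both sexes. Only mice with low-level private regions were counted here, also for the single-read regions. In the 16 of them with Y reads, 13 of 993 regions (1.31%, 0.699 to 2.23%) lay on X against 4.41% of single-read regions. In the 16 of them without Y reads 10 of 449 (2.23%, 1.07 to 4.06%) did, against 6.67%. At 10 RPM or more 1.85% lay on X. The Y chromosome held 0 of 1442, which allows up to 0.208% by the same 3 counts. Y makes up 0.106% of bases and held 0.0997% of single-read regions and 2 of the 812 regions at 10 RPM or more. Nothing is read from the 0.

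**Figure D5:**
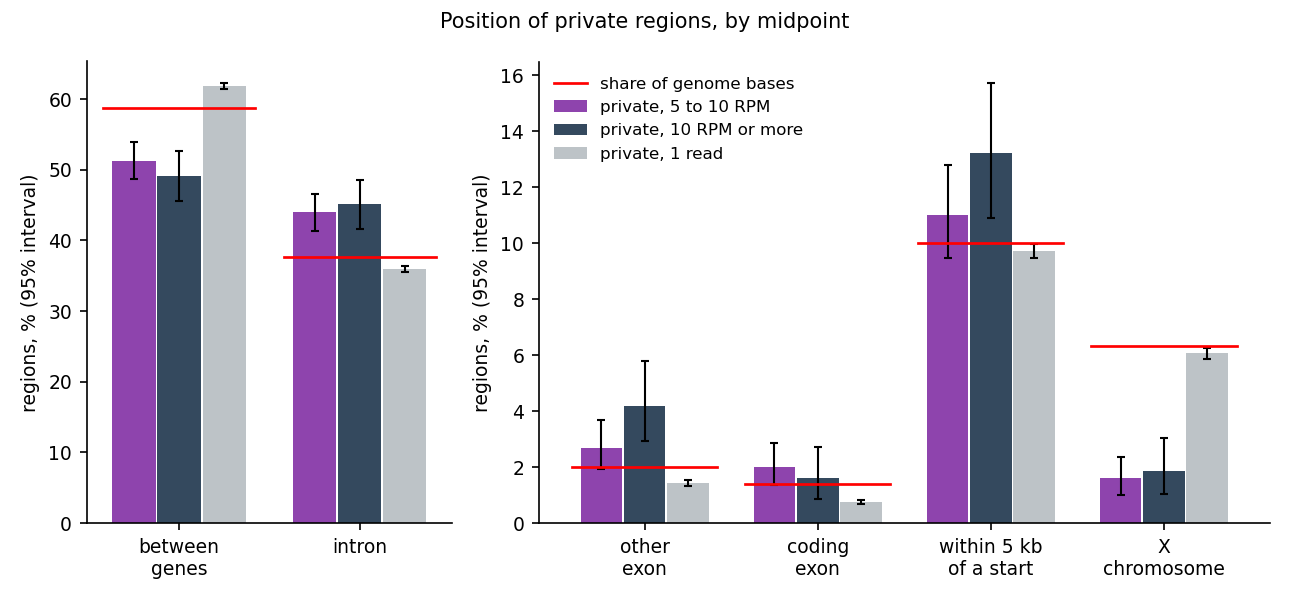
Position of private regions by midpoint (vertical axis, percent of regions, with exact 95% intervals) for regions of 5 to 10 RPM, of 10 RPM or more and of a single read. The red line is the share of reference bases. Introns held 44% of the regions of 5 to 10 RPM and 36% of single-read ones, and the X chromosome 1.6 and 6.06%.

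The 29 regions in coding exons came from 17 mice. By RPM the first were in Cradd, a death domain adaptor (M05143, chromosome 10, 94638452 to 94638762, 9.88 RPM), Gpr124, an adhesion receptor of brain vessels (C7417, chromosome 8, 28225628 to 28226133, 9.88 RPM), and Rfx6, a transcription factor of the endocrine pancreas (BA27228, chromosome 10, 51428343 to 51428600, 9.53 RPM). The region in Rfx6 was the only one of the first 10 with an ETn probe match within 1000 bp. The next were in BC005764 (C6765, 9.48 RPM), Fhad1 (BA27084, 9.09 RPM), 4632415K11Rik (C7250, 9.04 RPM) and the milk fat globule gene Btn1a1 (H04408, 8.77 RPM). They were followed by Gata3, a transcription factor of T cells (M05668, chromosome 2, 9798879 to 9799271, 8.69 RPM), 2610101N10Rik (M05669, 8.62 RPM), and Ankle2, a nuclear envelope protein (C6733, 8.61 RPM), which shared its value with Rcor1, a subunit of the CoREST repressor, in the same mouse.

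Protein-coding genes with a midpoint inside numbered 625, and 43 of them held regions of 2 or more mice at different sites. These 43 were long, with a median span of 431822 bp against 103107 bp for the 625 and 15427 bp for all protein-coding genes of the annotation. The 2 with regions of 4 mice were Gm20388 (7 regions) and the growth factor receptor gene Fgfr2 (4 regions). The only transcript of Gm20388 in this annotation spans 4434882 bp, and 1 of the 29 of Fgfr2 spans 3009069 bp where the next longest spans 103734 bp. Regions of 3 mice each lay in Arfip1, Arhgap26, Frmd4b, Pard3b (a cell polarity protein), Rabgap1l and Rad51l1 (a recombination repair gene). Of the 5 transcripts of Arfip1, 1 spans 1391091 bp where the next longest spans 86442 bp. Erc2, a synaptic active zone protein, held 2 regions of C6733 (chromosome 14, 28724656 to 28725043 and 29045477 to 29045917, both 7.38 RPM) and 1 of M05139 (28827235 to 28827535, 6.18 RPM). The last of the 10 places was tied: of 35 genes with regions of 2 mice, Erc2 came first with 3 regions and 1500001M20Rik next in order of name. The latter was the shortest of the 10 (33496 bp), with regions of the mating 3 littermates M05141 (9.74 RPM) and M05143 (8.23 RPM). Across the genome, 16 neighbouring pairs of regions of different mice lay within 10000 bp of each other, of 1422 neighbouring pairs.

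Of 8 genes known for mutations by ETn or MusD insertions (Fas, Lep, Ptf1a, Fbxw4, Gli3, Cacng2, Zhx2 and Dysf), only Gli3, a transcription factor of Hedgehog signalling in limb and brain, held a region. It lay in an intron in the mating 2 KO tail C7250 (chromosome 13, 15601527 to 15601901, 4 reads, 6.02 RPM). A region of C7416 lay 99499 bp outside the same gene (15455310 to 15455828, 7.25 RPM). A region of H03387 lay 38925 bp from Fbxw4 (chromosome 19, 45613673 to 45613965, 6.5 RPM), the gene changed in dactylaplasia. In the other 6 genes the nearest region was 211828 bp away or farther. For comparison, 625 of the 22367 protein-coding genes of the annotation held a region. The median span was 103107 bp for these 625 and 15427 bp for all protein-coding genes, and Gli3 spans 266792 bp. Whether the 8 genes held regions more often than other genes of similar length was not tested.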

How the data were processed

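Genomic DNA of tail, ear, blood and organs was enriched for ETn LTR ends. Per the study's methods, the authors mapped paired 50 bp reads to mm9 with Bowtie, took out duplicates (SAMtools), retained unique alignments with a mate in an ETn repeat and merged them with bedtools within 1000 bp; these deposited tables hold raw read counts per region (0 columns of other samples). Counts were divided by the library sum to give RPM. Repeat mates and unique mapping hide insertions in repeats, and duplicate removal limits the counts of strong loci.

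Members and gene lists were chosen with earlier results of these data known. Neighbours within 1000 bp were sought in every library of every other animal or line. Positions used GENCODE vM1 on the same build, checked by chromosome length. ETn probe matches used blastn 2.17.0 (e-value 1e-05, word size 11). Numbers per mouse were compared by exact permutation tests of the rank sum, adjusted by Benjamini-Hochberg within families. The sign-flip test was planned as exact, but 23 and 25 mice required 100000 random flips, and the correlation was planned over all tails but computed within a cluster. Scripts (Python 3.11.15, SciPy 1.17.1) were tested on simulated data. Named regions were those of C6733 seen in an organ (none), the highest in a second tail library per mouse (that of C7416 is not reported here), the 10 coding exon regions of most RPM, the 10 genes with most mice, and 8 genes with known ETn or MusD mutations. Alternatives changed the read minimum, the window, the privacy distance, the depth (thinned to the shallowest library), the probe matches and the animals included. First libraries held 563472 to 902477 reads, so a region of 4 reads carries the counting error of 4 reads.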

Additional observations from a re-analysis of the deposited data

Results flagged for a closer look

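Among 7 groups of 4 to 8 mice, 1 mouse stood far from the others of its group: the F1 second generation KO ear of C6427 held 1 low-level private region and the other 3 ears 0. In a group whose other values are all 0, any count above 0 stands apart. The flag rests on a single region, and how often groups of such low counts are flagged without any real difference was not tested.

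The further libraries did not choose the regions of their own mouse, although they served to exclude regions of other mice, and they held private regions of 5 to 10 RPM of their own. The adult tail of C6733 held 104 and the adult tail of C7416 held 26. The blood library of C6733 held 8, of which 2 had a region in kidney and 2 in the adult tail, and the kidney library held 10, none of which was found in another library of the mouse.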

How the results depend on the processing

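The number of regions was 927 with a read minimum of 5, 771 in a window of 7 to 10 RPM, 856 with no region of another animal within 5000 bp and 929 with libraries thinned to the shallowest, against 1442. For mating 1, the surplus of pairs was 72.5 percentage points in the window of 4 to 7 reads, and leaving out single animals gave 43.8 to 78.1. For the 3 matings it was 42.5 in that window and 56.4 without mating 3, the difference of means was 31.3 regions, and leaving out single animals gave 30.9 to 44.6. These are the KO results that passed the threshold under an alternative, by the exact or permutation test with adjustment. For the 3 matings, the surplus was 20.8 percentage points without mating 1 and 29.6 without mating 2, and neither passed. F2 against F1 passed with all tissues (50.9), also without the 4 mice whose Y reads go against their labels (50.5), an alternative chosen after seeing the data. Recovery in technical repeats was 76.1% when the second region needed 2 reads, and recovery in adult tails was 27.7% when regions were chosen in the adult tail. The cause was not tested. No alternative reversed a result, and recovery in organs stayed at 0 in each alternative run. Depth limits the count: 4 reads were worth up to 7.1 RPM, so the lower part of the window is empty in shallow libraries. No paired analysis was possible because replicate numbers follow accession order and tie no mice together, and this concerns the comparisons of genotypes and generations. The tests of gene shares paired both kinds of region within a mouse, and 1 alternative permuted animals within matings.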

Other observations

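Among the juvenile tails of matings 1 to 3, the KO mice with the most low-level private regions were those with Y reads, a split made after the numbers had been seen and not tested. The 5 KO tails with Y reads (C6733, C7250, H032265, M05143 and M05668) held 76 to 116 regions, a mean of 103 ± 18.2 (SD, n = 5), and the 7 WT or KO/WT tails with Y reads held 0 to 47, a mean of 24.9 ± 17.6 (SD, n = 7), with no overlap. Counted by its sex label, H04408 with 35 regions would join these KO tails and the groups would overlap. Without Y reads, 8 KO tails held 0 to 61 (21.5 ± 24.3, SD) and 10 others 0 to 62 (18.9 ± 22.8, SD), with 4 and 5 of them at 0. The order held in each mating: KO tails with Y reads held 116 against 4 in mating 1, 91 and 116 against 0 to 32 in mating 2, and 76 and 114 against 33 to 47 in mating 3. Outside these matings the 2 KO tails of the second generation, H03384 and H03387, both with Y reads, held 120 and 81. The KO/WT father BA27084 held 90, above all but 4 of the KO tails of the 3 matings.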
